A study of Rattus norvegicus with 15 samples.

Results

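The G-protein-coupled receptors for transmitters and neuropeptides were followed in rat dorsal root ganglion (DRG) cells treated with dibutyryl cAMP (dbcAMP), a membrane-permeable analog of cAMP. They were picked by gene symbol, as the receptors for adrenaline and noradrenaline, serotonin (without its ion channels), dopamine, acetylcholine (muscarinic), glutamate (metabotropic), GABA (type B), opioids, neuropeptide Y, galanin, somatostatin, tachykinins, histamine, melanocortins, adenosine and nucleotides (P2Y). They had 75 probes for 72 genes, of 4153 genes with a named probe and 5088 probes in all. Lumbar ganglia of juvenile rats had been dissociated and cultured, and cells given 1.5 mM dbcAMP in medium were set against cells given medium alone, with 3 arrays at each of 1, 3, 6, 12 and 18 h. The labels list the first time as 1 h and their treatment protocol as 0 h, they do not say which arrays came from cells on poly-L-lysine and which from cells on myelin, and they give no time of the control cultures.

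These receptors span the membrane and pass the binding of a transmitter on to a G protein inside the cell. Those coupled to Gs activate adenylyl cyclase and raise cAMP, those coupled to Gi or Go inhibit the cyclase and open potassium channels, and those coupled to Gq activate phospholipase C and release calcium. In sensory ganglia they set how readily a neuron fires and how much transmitter its terminals release, and opioid, neuropeptide Y and adrenergic receptors are known for their parts in pain. dbcAMP enters the cell past the receptors, so the ratios below concern the receptors' own mRNA and not their signalling.

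Each value is the log2 of a ratio of treated (Cy5) to untreated (Cy3) cells on 1 array, as deposited, so 0 is no difference and 1 is a doubling. A ratio gives no level, so whether a receptor or a marker of DRG cells was present could not be read from it. All 15 arrays had the same dye orientation, so a dye bias particular to a probe would enter each of its ratios, and would drop out only where times are compared. The array medians of the ratio lay between 0.997 and 1.02. Log2 ratios spread more on 6 arrays (SD 0.627 to 0.703), among them all 3 of 18 h, than on the remaining 9 (SD 0.357 to 0.434), and arrays of the same time correlated at r = 0.236 to 0.646 across probes. Nothing in the labels says that the arrays of a time were separate cultures, so p-values rest on array-to-array spread that may be only technical. With 3 arrays a time, their number sets how precise a mean can be. In a mixed culture, fewer cells of a type and less RNA per cell cannot be told apart.

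At 18 h, receptor mRNAs that passed the test were mostly lower in treated cells. Of 74 receptor probes tested, 19 fell and 3 rose (limma, adjusted p under 0.05 after Benjamini-Hochberg adjustment over all probes), and 52 did not pass. That is 25.7% lower and 4.05% higher, beside 11.3% lower and 10.6% higher among all 5006 probes tested, and 29.7% beside 22.0% in either direction. A fall or rise here is against control cells and not over time. Of the 19 that fell, 17 already had a mean below 0 at 1 h, and no receptor probe passed the test of 18 h against 1 h. The largest falls were of the muscarinic receptor Chrm3 (probe 41C08), the histamine receptor Hrh1 and the dopamine receptor Drd2. The largest rise was of P2ry14, a receptor for UDP-sugars. The count depended on the processing. The p-values used the spread of all 15 arrays, while the 3 arrays of 18 h were among the 6 with wider ratios. Of the 22, 7 passed when all arrays were scaled to equal spread, 13 with array weights, and 2 in a fit of the 18 h arrays by themselves, namely Chrm3 probe 41C08 and Hrh1. The shares of all probes under these settings are not given.

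**Figure D1:**
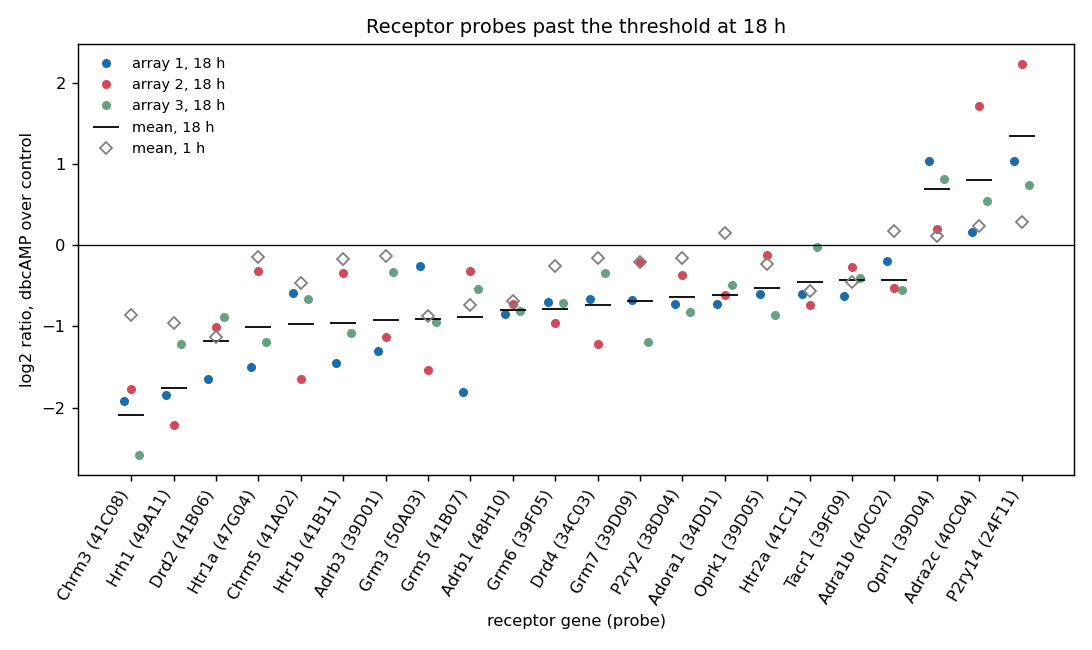
Log2 ratios of dbcAMP to control (vertical axis) of the 22 receptor probes past the threshold at 18 h (horizontal axis). Dots are the 3 arrays of 18 h, bars their means and open diamonds the means of 1 h, and all 3 dots lie below 0 for 19 probes and above 0 for 3.

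Of the 22 probes, 9 passed again without each array of 18 h in turn, and all 9 also did after the median of each probe plate had been subtracted on every array. The plate is the first number of a probe's name. Chrm3 encodes a Gq-coupled muscarinic receptor, which raises calcium in response to acetylcholine. Its probe 41C08 had log2 ratios of -1.91, -1.77 and -2.58 on the 3 arrays of 18 h. All 3 arrays were low, and their mean was -2.09 ± 0.43 (SD, n = 3, adjusted p = 3.86e-05), a ratio of 0.235. A second probe of Chrm3, described further on, gave another result. Hrh1, the Gq-coupled histamine receptor that mediates itch and allergic responses, was at -1.85, -2.21 and -1.21. It too was low on every array, with a mean of -1.76 ± 0.51 (SD, n = 3, adjusted p = 0.000208) and a ratio of 0.296. Among all 5006 probes tested, Chrm3 probe 41C08 was at place 22 and Hrh1 at place 44 from the lowest mean.

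Drd2, a Gi-coupled dopamine receptor, was at -1.65, -1.01 and -0.88 on the 3 arrays of 18 h, with a mean of -1.18 ± 0.42 (SD, n = 3, adjusted p = 0.000705). When all arrays were scaled to equal spread its adjusted p was 0.050016. Adrb1, the beta-adrenergic receptor of the heart, couples to Gs and raises cAMP. Its arrays lay close together at -0.85, -0.72 and -0.81 (mean -0.80, adjusted p = 0.000784, or 0.0702 when scaled). Grm6, a Gi-coupled glutamate receptor best known from retinal bipolar cells, was at -0.70, -0.96 and -0.71. Its mean was -0.79 (adjusted p = 0.00475, or 0.0571 when scaled). These 3 probes were below 0 on every array of 18 h and had adjusted p-values of 0.0536 to 0.0603 from the 18 h arrays alone.

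Chrm5, a Gq-coupled muscarinic receptor, was at -0.58, -1.65 and -0.66, with a mean of -0.97 (adjusted p = 0.00116). Array 2 was the lowest, and without it the mean was -0.62 (adjusted p = 0.00523). Htr1b, a Gi-coupled serotonin receptor of nerve terminals and a target of the triptans, was at -1.45, -0.34 and -1.08 (mean -0.96, adjusted p = 0.00269). Array 2 was here the nearest to 0. P2ry2, a Gq-coupled receptor for ATP and UTP, was at -0.72, -0.37 and -0.82, a mean of -0.64 ± 0.24 (SD, n = 3, adjusted p = 0.00138). Unlike Drd2, Adrb1 and Grm6, these 3 probes also passed with the arrays scaled (adjusted p = 0.0155 for Chrm5, 0.0246 for Htr1b and 0.0326 for P2ry2). They did not pass with the 18 h arrays alone or by the methods' t-test. The highest adjusted p of the alternatives was 0.367 for Chrm5, 0.358 for Htr1b and 0.267 for P2ry2.

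Of the 3 receptors that rose, P2ry14 was at 1.04, 2.24 and 0.74 on the arrays of 18 h. It was above 0 on each, with a mean of 1.34 ± 0.79 (SD, n = 3, adjusted p = 0.00373) and a ratio of 2.53, and stood at place 36 from the highest of all probes tested. Array 2 was the highest, and without it the mean was 0.89 (adjusted p = 0.0393). Oprl1, the receptor for nociceptin, was at 1.04, 0.20 and 0.82 (mean 0.69, adjusted p = 0.0123). Its adjusted p was 0.107 without array 1 and 0.0669 without array 3. Adra2c, a Gi-coupled adrenergic receptor that limits noradrenaline release, was at 0.16, 1.71 and 0.54 (mean 0.80, adjusted p = 0.0303). It rested on array 2, without which it was at 0.35 (adjusted p = 0.29). Oprl1 and Adra2c did not pass with the arrays scaled (adjusted p = 0.109 and 0.152), while P2ry14 did (adjusted p = 0.0271). With the 18 h arrays alone or by the methods' t-test, none of the 3 passed. The highest adjusted p of P2ry14 under the alternatives was 0.358.

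The remaining 11 probes that fell each lost the call without at least 1 array of 18 h. Htr1a, a Gi-coupled serotonin receptor that also acts as an autoreceptor, was at -1.50, -0.31 and -1.20 (mean -1.002, adjusted p = 0.0111), and at an adjusted p of 0.101 without array 1 and 0.0641 without array 3. Adrb3, the beta-adrenergic receptor of fat cells, was at -1.30, -1.13 and -0.32 (mean -0.92, adjusted p = 0.0188), with 0.129 without array 1 and 0.0945 without array 2. Drd4, another Gi-coupled dopamine receptor, was at -0.66, -1.22 and -0.34 (mean -0.74, adjusted p = 0.024), with 0.071 without array 1 and 0.185 without array 2, where the mean was -0.50. In these receptors the size of the fall differed between arrays while its direction did not. Adora1, the Gi-coupled adenosine receptor that quiets neurons, was at -0.72, -0.62 and -0.48 (mean -0.61, adjusted p = 0.0177), with 0.0917 without array 1 and 0.0636 without array 2. Oprk1, the kappa-opioid receptor, was at -0.61, -0.13 and -0.86 (mean -0.53, adjusted p = 0.0253), with 0.107 without array 1 and 0.184 without array 3. Tacr1, the Gq-coupled receptor for substance P, was at -0.63, -0.27 and -0.40 (mean -0.43, adjusted p = 0.0151), with 0.112 without array 1. Adra1b, a Gq-coupled adrenergic receptor, was at -0.19, -0.53 and -0.55 (mean -0.42, adjusted p = 0.0257), with 0.12 without array 2 and 0.13 without array 3.

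Glutamate receptors made up 3 more of these probes. Grm3, Gi-coupled and found on neurons and glia, was at -0.26, -1.53 and -0.95 (mean -0.91, adjusted p = 0.0172), and at -0.60 (adjusted p = 0.151) without array 2 and an adjusted p of 0.0659 without array 3. Grm5, Gq-coupled and known for its part in synaptic plasticity, was at -1.81, -0.32 and -0.54 (mean -0.89, adjusted p = 0.0271), and at -0.43 (adjusted p = 0.268) without array 1. Grm7 probe 39D09 lay at the threshold, with arrays at -0.67, -0.20 and -1.20 and a mean of -0.69 (adjusted p = 0.049997), and its mean was -0.44 (adjusted p = 0.295) without array 3 and its adjusted p was 0.131 without array 1. Htr2a, a Gq-coupled serotonin receptor and the target of the classic hallucinogens, was at -0.60, -0.74 and -0.03 (mean -0.45, adjusted p = 0.0397), with an adjusted p of 0.18 without array 1 and 0.236 without array 2. Without array 3 the mean of Htr2a was -0.67, so 1 array decided its size as well. Centred on plate medians, Htr1a, Oprk1, Adra1b, Grm3, Grm5, Grm7 probe 39D09 and Htr2a did not pass (adjusted p of 0.0516 to 0.713, with Htr2a at -0.09).

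CREB, the factor that cAMP activates, binds the letters TGACGTCA or the shorter TGACG, and both were looked for in promoters. Of the 9 receptors that changed at 18 h and passed without each of its arrays, 8 had a promoter in the table used. The shorter letters stood in 3 of these, Chrm3, Adrb1 and P2ry14, and not in the other 5, Hrh1, Drd2, Grm6, Htr1b and P2ry2, and none held the full letters. The 3 with a match and Hrh1, as an example without one, are shown, picked after the matches were known. Each is the 250 bases before the annotated start in RefSeq, build GRCr8, read 5′ to 3′ on the gene's strand, with TGACG on either strand (CGTCA on the other) in capitals. The full TGACGTCA holds both shorter forms, which overlap in it. Such windows were at hand for 56 of the 72 genes, too few for a statement on the whole set, and 13 of the 56 (23.2%) held the shorter letters. These letters stood in 23.8% of the windows of genes on the arrays and in 18.2% of all 33469 windows, and the full letters in 2.01% and 1.59%. The windows lie at chr17:64696677-64696926 (plus strand) for Chrm3, at chr4:149120261-149120510 (plus) for Hrh1, at chr1:265776853-265777102 (plus) for Adrb1 and at chr2:145538511-145538760 (minus) for P2ry14.
Chrm3: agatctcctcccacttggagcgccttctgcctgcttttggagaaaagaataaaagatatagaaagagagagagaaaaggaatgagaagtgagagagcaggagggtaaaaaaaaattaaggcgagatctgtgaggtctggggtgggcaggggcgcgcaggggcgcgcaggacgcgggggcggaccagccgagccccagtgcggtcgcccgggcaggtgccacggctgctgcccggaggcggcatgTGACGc
Hrh1: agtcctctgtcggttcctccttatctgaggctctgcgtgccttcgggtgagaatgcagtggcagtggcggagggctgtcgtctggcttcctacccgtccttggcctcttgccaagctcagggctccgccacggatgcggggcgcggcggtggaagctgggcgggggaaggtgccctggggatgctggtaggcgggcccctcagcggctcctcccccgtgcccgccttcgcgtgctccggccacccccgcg
Adrb1: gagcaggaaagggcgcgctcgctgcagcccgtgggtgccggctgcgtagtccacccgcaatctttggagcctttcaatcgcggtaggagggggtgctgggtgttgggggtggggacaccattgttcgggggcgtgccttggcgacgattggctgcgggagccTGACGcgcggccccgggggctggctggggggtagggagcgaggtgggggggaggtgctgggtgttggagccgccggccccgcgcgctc
P2ry14: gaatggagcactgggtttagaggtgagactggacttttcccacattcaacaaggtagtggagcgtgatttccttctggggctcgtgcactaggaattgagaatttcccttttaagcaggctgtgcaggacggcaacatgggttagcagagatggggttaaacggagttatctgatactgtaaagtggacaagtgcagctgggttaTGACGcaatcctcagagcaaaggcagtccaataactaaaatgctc
The shorter letters began at -6 from the start in Chrm3, at -88 in Adrb1 and at -45 in P2ry14, and were not found in the window of Hrh1. A match of letters is a description of the sequence and not of binding.

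By ligand, the calls were spread over 11 of the 16 families. Among all probes tested, 11.3% were lower and 10.6% higher. The families have few probes and were not tested against these shares. Both beta-adrenergic receptors measured, Adrb1 and Adrb3, fell. Among metabotropic glutamate receptors 4 of 7 probes tested fell and none rose, and their median log2 ratio was -0.69. Of 12 serotonin receptor probes 3 fell, 11 had a mean below 0 and the median was -0.49. Centred on plate medians, 1 glutamate and 1 serotonin receptor probe fell and 1 glutamate receptor probe, Grm7 46H07, rose. All probes were then 10.1% lower and 9.97% higher. Dopamine and muscarinic receptors each had 2 probes that fell, of 5 and of 6. Alpha-adrenergic, opioid and P2Y receptors had 1 probe each way, with Adra1b, Oprk1 and P2ry2 lower and Adra2c, Oprl1 and P2ry14 higher. Histamine, tachykinin and adenosine receptors had 1 probe each that fell. Of the GABA-B, neuropeptide Y, galanin, somatostatin and melanocortin receptors, with 17 probes in all, none passed (0 by limma and by the methods' t-test after adjustment, and 4 at an unadjusted p under 0.05 by limma, of Npy4r, Mc5r, Galr2 and Gabbr1). Means ranged from -0.41 to 0.03 for the 4 neuropeptide Y receptors and from -0.94 to 0.14 for the 5 somatostatin receptors. The median over all receptor probes was -0.21, beside 0.01 over all probes, and 63.5% of receptor means lay below 0, beside 48.5% of all.

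**Figure D2:**
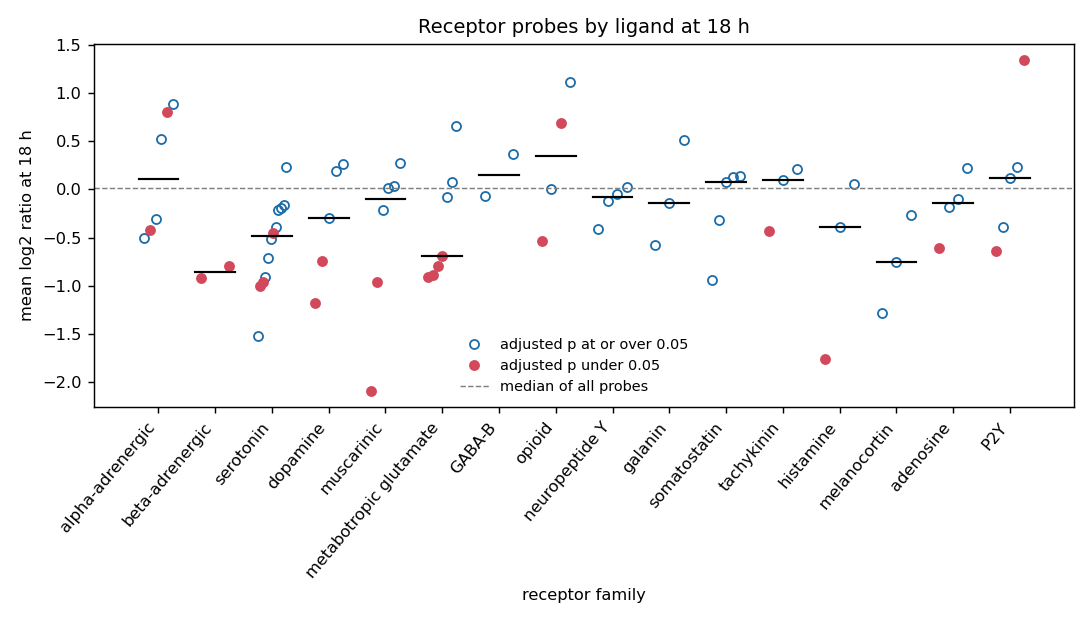
Means at 18 h, as log2 ratios of dbcAMP to control (vertical axis), of each receptor probe by family (horizontal axis). Filled points passed the threshold, open points did not, lines are family medians and the dashed line is the median of all probes, at 0.01. The medians of glutamate and serotonin receptors lie at -0.69 and -0.49.

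By the G protein they usually couple to, 8 of 20 Gq-coupled probes fell and none rose, 9 of 40 Gi- or Go-coupled probes fell and 3 rose, and 2 of 14 Gs-coupled probes fell and none rose. Among all probes tested, 11.3% were lower and 10.6% higher. Of the Gq-coupled probes that fell, Chrm3 probe 41C08, Chrm5, Grm5 and Htr2a came from plate 41, where 37 of 96 probes were lower. The medians of the classes were -0.39 for Gq, -0.10 for Gi and Go and -0.39 for Gs. Centred on plate medians, the counts were 5 lower for Gq, 5 lower and 4 higher for Gi and Go, and 2 lower for Gs. Of all probes, 10.1% were then lower and 9.97% higher. The difference between the classes was not tested. Receptor probes also varied more between arrays than most, with a median residual SD of 0.41 on the log2 scale beside 0.31 over all probes.

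The limma fit shared 1 estimate of spread over all times. In it, fewer receptor probes passed at the earlier times, and all that did were lower in treated cells. Under some other settings, given further on, more passed at 1 and 3 h than at 18 h. Of 75 tested at each time, 2 fell at 1 h, 4 at 3 h, 1 at 6 h and 6 at 12 h. These were 2.67% of receptor probes at 1 h (all probes 1.60% lower, 0.732% higher and 2.33% in either direction) and 5.33% at 3 h (all probes 1.94% lower, 0.931% higher and 2.87% in all). At 6 h they were 1.33% (all probes 2.35% lower, 1.84% higher and 4.19% in all), and at 12 h 6 of 75, beside 4.77% lower, 3.81% higher and 8.58% in all among all probes. The share that fell was above that of all probes at 1, 3 and 12 h and below it at 6 h, on counts of 1 to 6 probes. Drd2 passed at all 5 times. Its 3 arrays were at -0.78, -1.13 and -1.47 at 1 h, at -1.21, -1.28 and -1.25 at 3 h, and at -1.69, -1.39 and -0.82 at 6 h. All 15 of its arrays lay below 0, its means kept between -1.30 and -0.998, and from 1 h to 18 h it differed by -0.05 (standard error 0.27, adjusted p = 0.951). Leaving out array 2 or 3 of 1 h gave Drd2 there an adjusted p of 0.0649 or 0.0906, and leaving out array 1 of 12 h gave 0.0719.

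Adrb1 had passed at 1, 3 and 12 h too, at means of -0.68, -0.52 and -0.84, but not at 6 h, where it was at -0.24 with arrays at -0.54, 0.19 and -0.38. Its call at 1 h and at 3 h was lost when any single array of the time was left out (adjusted p of 0.0692 to 0.153 and of 0.22 to 0.276). Like Drd2, Adrb1 was as low at 1 h as at 18 h, with a difference of -0.11 (standard error 0.18, adjusted p = 0.823). Without passing at 1 h, Tacr1 (-0.45), Htr2a (-0.57), Grm3 (-0.87) and Grm5 (-0.74) were also near their 18 h means then. Their differences were -0.15 to 0.11 (limma, adjusted p of 0.846 to 0.977). A dye bias of such probes would give the same steady ratio and was not tested. Hrh1 was at -2.50, -1.05 and -1.29 at 12 h (mean -1.62, adjusted p = 0.00124), after -0.96 at 1 h (adjusted p = 0.055), -0.57 at 3 h and -0.62 at 6 h. Chrm3 probe 41C08 was at -1.11 at 3 h (adjusted p = 0.0153), with adjusted p = 0.127 without array 1 and 0.186 without array 2. It was below 0 on all 15 arrays. Chrm5 fell at 3 h, at -0.80 (adjusted p = 0.0171, and 0.109 to 0.168 with any single array left out), was at 0.10 at 12 h and fell again at 18 h.

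At 12 h, Adrb3 was at -1.26, -1.43 and -1.11 (mean -1.27, adjusted p = 0.00769), with adjusted p = 0.0539 without array 1 and 0.052 without array 2. Oprk1 was at -0.54 (adjusted p = 0.0477, and 0.0983 to 0.216 with any single array left out). Htr6, a Gs-coupled serotonin receptor, fell at 12 h on the 2 arrays with a ratio, at -2.23 and -1.32 (mean -1.78, adjusted p = 0.0462). It was the only receptor probe that passed at an earlier time and not at 18 h, where it was at -2.03, -0.71 and 0.02 (adjusted p = 0.134). The early counts changed as well. Scaled to a common spread, 9 receptor probes passed at 1 h and 13 at 3 h, more than the 7 at 18 h. Centred on plate medians, 1 passed at 1 h and 1 at 3 h. The shares of all probes at 1 and 3 h under scaling or plate centring are not given. Whether these counts are particular to receptors thus cannot be read from them. By the methods' t-test, 19 had an unadjusted p under 0.05 at 1 h, 22 at 3 h and 12 at 18 h. Among all probes these shares were 12.9%, 15% and 18.1%. That fewer receptors passed early thus held only for some settings.

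**Figure D3:**
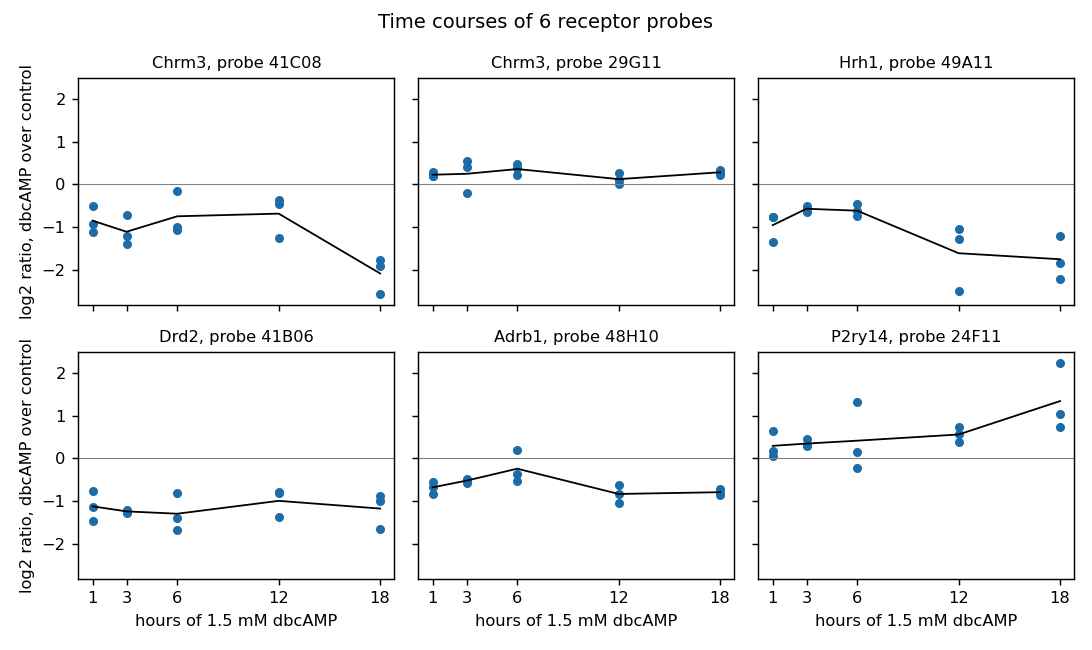
Time courses of 6 receptor probes, with the log2 ratio of dbcAMP to control on the vertical axis and hours in 1.5 mM dbcAMP on the horizontal axis. Each point is 1 array and each line connects the means. Drd2 lies between -1.30 and -0.998 at all times, Chrm3 probe 41C08 goes from -0.85 at 1 h to -2.09 at 18 h, and its probe 29G11 stays between 0.12 and 0.36.

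No receptor probe passed the test of the difference between 18 h and 1 h (limma, 0 of 74, beside 2.74% of all probes), nor the F test over the 5 times (0 of 74, beside 1.87%). At an unadjusted p under 0.05 there were 13 in the former, 2 up and 11 down, or 17.6% beside 16.7% of all probes, and 11 in the latter, beside 14.7% of all probes. For the difference, the methods' t-test gave 10 at an unadjusted p under 0.05, beside 15.9% of all probes, and none after adjustment. The smallest adjusted p was that of Chrm3 probe 41C08, whose difference was -1.24 (standard error 0.32, adjusted p = 0.0599). Adra1b went from 0.17 at 1 h to -0.42 at 18 h, a difference of -0.60 (adjusted p = 0.0937), and Adora1 from 0.16 to -0.61, a difference of -0.76 (adjusted p = 0.107). These were the 2 probes that fell at 18 h from a mean above 0 at 1 h, as the other 17 were already below 0 then. P2ry14 differed by 1.05 (adjusted p = 0.191). A fit chosen after seeing the data left out array 3 of 6 h and arrays 1 and 2 of 12 h. These were the wide arrays of those times, while the wide arrays of 18 h were kept. Chrm3 probe 41C08, Adora1 and Oprm1 then passed the test of the difference, at unchanged differences of -1.24, -0.76 and 0.87. Oprm1 had only 2 ratios at 18 h. The share of all probes that passed in that fit is not given.

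Many receptor probes shared a few plates, as the probe names give them. Of 75, 48 came from plates 38 to 41, and the median log2 ratio of all probes of those plates was -0.15 at 18 h. Plate 41, with 7 receptor probes, had the lowest median of the plates with receptors, at -0.36 (-0.20 at 1 h), and 37 of its 96 probes were lower. On plates 38 to 41, 27.1% of receptor probes and 19.1% of all probes were lower at 18 h, and 4.17% and 4.18% were higher. On the other plates 6 of 26 receptor probes were lower, or 23.1%, beside 10.7% of all, and 3.85% were higher, beside 11.2% of all. Most of those plates held no receptor probe. Of the 6, Hrh1, Htr1a, Adrb1 and Grm3 came from plates 47 to 50, which were low as well. Their plate medians at 18 h were -0.28 to -0.12, with 12 to 32 of 96 probes lower on each. Drd4 and Adora1 came from plate 34, with a median of -0.02 and 9 of 96 lower. Centred on plate medians, 12 receptor probes were lower and 4 higher, 16.2% and 5.41%, beside 10.1% and 9.97% of all probes. Of the 22 calls, 15 were kept in the same direction, 12 of them lower. Drd2 was then at -0.81 and Adrb1 at -0.50, while Chrm3 probe 41C08 was at -1.72 and Hrh1 at -1.58. The share of plate position in the fall of receptors was not tested beyond these values.

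**Figure D4:**
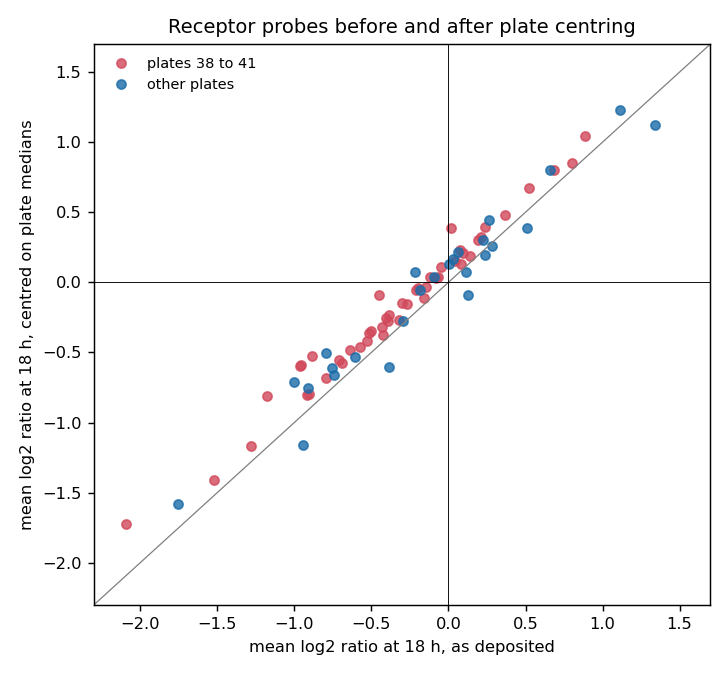
Mean log2 ratio at 18 h of 74 receptor probes as deposited (horizontal axis) and after centring on plate medians (vertical axis), with the line of equal values. Points of plates 38 to 41 lie mostly above the line, as the median of all probes of those plates was -0.15.

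For 3 genes a pair of probes was present, designed on different transcript records. Those of Chrm3 went apart. Probe 29G11 was at 0.22, 0.32 and 0.30 on the arrays of 18 h (mean 0.28, adjusted p = 0.135), where probe 41C08 was at -2.09, and it had been at 0.22 at 1 h where the other was at -0.85. The fall of Chrm3 is thus that of 1 of its probes. Those of Grm7, a Gi-coupled glutamate receptor of nerve terminals, also had means on either side of 0, at -0.69 for 39D09 and 0.66 for 46H07, the latter with arrays at 0.69, -0.14 and 1.43 (adjusted p = 0.102, and 0.0356 centred on plate medians). Htr7, a Gs-coupled serotonin receptor, was at -0.52 and -0.21 on its probes (adjusted p = 0.157 and 0.596), and 1 array of the former, at -1.45, set its mean.

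Some receptors with large means did not pass because their arrays were unequal or missing. Htr4, a Gs-coupled serotonin receptor, was at -3.91, -0.63 and -0.02 at 18 h (mean -1.52, adjusted p = 0.0877), and without array 1 at -0.33. Mc5r, a melanocortin receptor of exocrine glands, was at 0.44, -0.52 and -3.76 (mean -1.28, adjusted p = 0.0963), and without array 3 at -0.04. A single array carried either mean. Oprm1, the mu-opioid receptor and the target of morphine, had 2 ratios at 18 h, 1.35 and 0.88 (mean 1.12, adjusted p = 0.184), and at 12 h 2 that were opposed, -2.81 and 0.42. Grm2 had a ratio on 8 of 15 arrays and on none of 18 h, so it was not tested there. The 44 probes with a mean at 18 h that are not described singly lay between -0.94 and 0.89.

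Beyond the receptors, 36 of 48 listed genes that make, store or remove their ligands were measured, with 39 probes, of which 5 rose and 4 fell at 18 h (12.8% and 10.3%, beside 10.6% and 11.3% of all probes). Npy, the ligand of neuropeptide Y receptors, rose to 1.22 (adjusted p = 0.000208), while none of its 4 receptors measured passed. Gal, or galanin, fell by 0.76 (log2, adjusted p = 0.00156), and none of its 3 receptors measured passed, with means of -0.58 to 0.51. Slc18a3, which loads acetylcholine into vesicles, rose to 1.28 (adjusted p = 0.000464). Abat, which breaks down GABA, fell by 1.01 (adjusted p = 2.17e-05), having been at -0.55 at 1 h. Adk, which removes adenosine, and Entpd1, which breaks down extracellular ATP, rose to 0.84 and 0.90 (adjusted p = 0.000656 and 0.00163). These 6 probes passed without each array of 18 h in turn and when centred on plate medians.

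Of 65 listed G protein subunits, effectors and regulators 57 were measured, with 62 probes. At 18 h 3 of these probes rose and 8 fell (4.84% and 12.9%, beside 10.6% and 11.3% of all probes). The share that fell was thus near that of all probes. Gna11, a Gq-class subunit, fell by 1.22 (adjusted p = 0.00028), Gnas, the Gs subunit, by 0.57 (adjusted p = 0.00173) and Gng7, a gamma subunit, by 0.70 (adjusted p = 0.00159). Rgs9, which speeds the turning off of G proteins, fell by 0.90 (adjusted p = 0.00595, and 0.0587 without array 2). Adcy2, an adenylyl cyclase, had unequal probes, as 20A02 rose to 0.98 (adjusted p = 0.000276) and 52E09 fell by 1.06 (adjusted p = 0.0127), the latter from -0.82 at 1 h and with adjusted p = 0.0703 without array 1 and 0.0743 centred on plate medians.

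Markers of the cells of a ganglion are read against 11.3% lower and 10.6% higher among all probes at 18 h. Of 22 probes of sensory neurons 4 fell and 2 rose (18.2% and 9.09%, median -0.09, range -0.84 to 1.03), with Uchl1, Ntrk2, Gap43 and Stmn2 lower (Stmn2 at 0.02 centred on plate medians, and at an adjusted p of 0.0546 without array 2). The neuronal markers that rose were Nefl, at 1.03 (adjusted p = 0.0271, and 0.45 with adjusted p = 0.268 without array 3), and Scn11a, at 0.30 (adjusted p = 0.0388, and 0.0580 to 0.142 with any single array left out). Of 19 probes of Schwann cells and satellite glia 4 fell and 4 rose (21.1% each, median -0.17, range -0.83 to 0.75). Of 15 fibroblast probes 6 fell and 1 rose (40% and 6.67%, median -0.26, range -1.26 to 0.85), and 86.7% of their means lay below 0, beside 48.5% of all probes. Both probes of S100a4 were among those that fell, by 1.22 and 1.26. Centred on plate medians, 4 fibroblast probes fell and 1 rose, and Dcn and Acta2 did not pass (adjusted p = 0.0756 and 0.0944). Acta2 and Vim also lost the call without single arrays of 18 h. Of 8 macrophage probes 1 fell and 1 rose (12.5% each, median -0.18), and of 7 endothelial probes none passed (0 by limma, 2 at an unadjusted p under 0.05, median 0.04). Summed levels cannot be had from ratios. The part of cell types in the receptor values was not tested.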

How the data were processed

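The authors deposited 1 linear ratio of dbcAMP-treated (Cy5) over untreated (Cy3) cells for each probe on 15 spotted oligonucleotide arrays, labelled with dendrimers per the labels. Background correction, normalization, filters and software are not stated in the labels or methods at hand, and scanner intensities were not used, so alternatives of background correction and dim probes could not be run. The log2 of the ratio was used without centring. Gene names are those of the platform annotation and may be outdated. Identifiers of 74 of 75 receptor probes matched RefSeq (GRCr8) with no change of symbol.

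Each probe with at least 2 of 3 ratios at a time was tested against 0, two-sided, with limma 3.58.1 in R 4.3.3 (lmFit and eBayes, 1 mean per time, 15 arrays, adjusted p under 0.05 over all probes). The same fit compared 18 h with 1 h and gave an F test over the times. It was tested on simulated data. The receptors, lists and tests were chosen with earlier results of these data known. Described singly are receptor probes past the threshold in any test, those of genes with several probes and the 10 with the largest means at 18 h, and in each list up to 6 past the threshold at 18 h by smallest p, of which not all are given. Alternatives were centring on array or plate medians, scaling to a common spread, array weights, a fit per time, a replicate block, the t-test of the methods, complete ratios and leaving out arrays. A fit without 3 wide arrays was chosen after seeing the data. Same-numbered arrays of different times did not deviate together (r of -0.0589 to 0.0693 over 30 pairs), so the numbers were not taken to pair arrays. Plots were drawn with matplotlib 3.10.9.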

Additional observations from a re-analysis of the deposited data

How the results depend on the processing

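At 18 h, where 22 receptor probes changed, centring on array medians gave 22, plate medians 16, the replicate block 24, complete ratios 22 and the fit without 3 wide arrays of 6 h and 12 h 28. Scaling to a common spread gave 7, array weights 13, the arrays of 18 h alone 2 and the methods' t-test 0 after adjustment (12 at an unadjusted p under 0.05, beside 18.1% of all probes). Leaving out 1 array gave 15 to 17. Shares of all probes are given only for plate medians (10.1% lower and 9.97% higher) and the t-test. Whether more receptor probes than all probes were lower under the other alternatives thus cannot be read from these counts. No described value that passed at 18 h turned its sign under any alternative run.

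At 1 h (2 probes), 3 h (4), 6 h (1) and 12 h (6), scaling gave 9, 13, 3 and 4, array weights 9, 13, 5 and 4, the arrays of the time alone 6, 11, 0 and 0, and the methods' t-test 0 at each (19, 22, 7 and 7 unadjusted, beside 12.9%, 15%, 9.11% and 9.75% of all probes). Plate medians gave 1, 1, 1 and 5, and array medians 2, 5, 2 and 6. The fit without the wide arrays gave 7, 6, 3 and 2, the last from 1 array at 12 h that was assumed to vary like the others. Leaving out 1 array gave 0 to 1 at 1 h, 1 to 2 at 3 h, 1 to 3 at 6 h and 2 to 6 at 12 h.

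Between 18 h and 1 h (0 probes), the fit without the wide arrays gave 3 and every other alternative 0. In the F test (0 probes), scaling gave 1 and array weights 2, and the others 0. The replicate block gave 3, 5, 1, 7 and 24 probes at the 5 times and 0 in both comparisons among times, and 3 of 15 arrays correlated best with their own number. Causes of these changes were not tested. Of 714 values of single probes under alternatives, 608 kept their side of the threshold, 96 no longer passed and 10 newly passed. All 96 were values at 18 h of the 22 probes called there. The rest, among them every difference between 18 h and 1 h, had not passed as reported and had no call to lose. The share kept over all 714 is thus not that of the calls. Signal over background, which limits dim probes, cannot be read from ratios.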
